A study of Mus musculus with 3 samples.

Results

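Matricellular proteins are secreted into the extracellular matrix, where they tune how cells attach to it and respond to growth factors rather than holding the tissue together. They bind collagens, integrins and other cell surface receptors, and in the kidney they are known from glomerular development, from mesangial cells and from scarring. The genes listed by name were Sparc, Sparcl1, Thbs1, Thbs2, Ccn2 (older symbol Ctgf), Ccn1 (Cyr61), Ccn3 (Nov), Tnc, Postn and Spp1. A gene entered when a probe set of the array named that gene and no other, and the probe set of highest mean signal would have stood for a gene with several. This gave 9 of the 10 genes, each through a probe set of its own, among 19938 named genes. Spp1, which encodes osteopontin, was not analysed here.

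RNA was measured in 3 samples of adult renal corpuscle, the capillary tuft of the nephron with its capsule. All were of 1 group, wild-type CD-1 male mice aged 7 to 9 weeks, with no further treatment, and each sample pooled about 2 kidneys. The kidneys were minced, kept for 15 min at 37 °C in 0.5% collagenase A and passed through filters of 100, 70 and 40 µm. Nothing was sorted, so the RNA came from all cells of the corpuscle that were kept and from tubule pieces that came along. With 1 group there was no comparison between conditions, and the question asked of each gene was whether its signal lay above background and how far the preparations differed.

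Values are log2 signals. Background was set by 1212 olfactory and vomeronasal receptor probe sets, genes of the nose, at the 95th percentile of their signals on an array. It lay at 6.90, 6.96 and 6.92 on replicates 1, 2 and 3 (linear signals of 119, 124 and 121). A gene was detected when its signal exceeded background in a one-sided limma test at an adjusted p of 0.05. Pearson's r across genes was 0.998 for each pair of arrays. The labelled tissue was checked with cell type markers. All 8 podocyte markers analysed, all 10 endothelial and all 9 mesangial and pericyte markers were detected. So were 7 of 8 proximal tubule markers, 5 of 6 loop and distal tubule markers, 2 of 6 collecting duct markers and 1 of 5 neuronal control genes. Among macrophage and other immune markers 6 of 8 were detected, and among platelet markers 3 of 4 analysed. Over all 19938 genes the share detected was 58.9%. Of 5 markers of parietal epithelium, the capsule, 4 were detected, and Krt18 was 0.27 below background. The median of that list was 0.66 above background. It was 4.37 for podocyte, 3.95 for endothelial and 3.34 for mesangial and pericyte markers. Proximal tubule markers had a median of 1.48 and loop and distal tubule markers 1.46, both above that of the parietal list. Collecting duct markers had a median of -0.23. Signals of different probe sets are not on a common scale, because each has its own affinity, so the height of a signal does not rank transcripts.

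Of the 9 matricellular genes 8 were detected, against 58.9% of all 19938 genes. The median of the 9 was 1.43 log2 above background and that of all genes 0.37. A stricter look, with every array above 150 in linear signal, also kept 8 of 9, against 51.3% of all genes. These shares describe genes chosen by name, and no test was run over the list. Both genes of the SPARC pair, both thrombospondins, Ccn1, Ccn2, Tnc and Postn were detected, and Ccn3 was below background on every array.

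Regions before 3 transcription starts, taken from RefSeq on build GRCm38.p6, are shown for what they hold or lack. They are those of Ccn1, Postn and Sparc. Ccn1 is a gene that answers quickly to growth factors and stretch, and Postn has the letters TATAAA before its second listed start. Sparc had the signal farthest above background of the matricellular genes, and its region holds neither GGAATG nor TATAAA. Each region is the 250 bases before the start, 5′ to 3′ on the strand of the gene. Capitals mark GGAATG, the core that TEAD factors bind, and TATAAA, the core of the TATA box, on either strand. Ccn1 lies on chromosome 3, and the region is chr3:145649986-145650235, minus strand. That of Postn is chr3:54360857-54361106, plus strand, and that of Sparc is chr11:55420081-55420330, minus strand.
Ccn1: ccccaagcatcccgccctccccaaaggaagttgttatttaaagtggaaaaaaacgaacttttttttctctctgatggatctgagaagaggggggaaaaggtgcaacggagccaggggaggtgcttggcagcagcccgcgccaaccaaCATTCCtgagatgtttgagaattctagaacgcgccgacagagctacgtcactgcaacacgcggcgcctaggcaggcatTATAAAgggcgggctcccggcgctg
Postn: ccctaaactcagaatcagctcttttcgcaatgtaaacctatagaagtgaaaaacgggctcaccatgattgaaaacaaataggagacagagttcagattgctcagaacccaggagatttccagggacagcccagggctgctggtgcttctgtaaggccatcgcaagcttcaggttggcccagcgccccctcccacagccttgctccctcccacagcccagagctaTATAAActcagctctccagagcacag
Sparc: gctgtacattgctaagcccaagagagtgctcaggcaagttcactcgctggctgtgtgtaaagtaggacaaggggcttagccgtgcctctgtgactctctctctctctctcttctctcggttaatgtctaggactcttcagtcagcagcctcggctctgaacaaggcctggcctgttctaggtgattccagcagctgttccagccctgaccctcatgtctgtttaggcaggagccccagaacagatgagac

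The Ccn1 region held GGAATG, read as CATTCC on the strand printed, at 103 to 98 bases before the start, and TATAAA at 25 to 20 bases before it. The Postn region shown held TATAAA at 26 to 21 bases, and the region before the first listed Postn start held no motif. TATAAA also lay farther from a start for Tnc, Thbs2 and Spp1, at 121 bases or more before it. Sparc held neither, and none of the 9 regions found for 6 of the 10 genes held a CArG box, the site of serum response factor. Among 32851 such regions of all genes, 12.6% held GGAATG, 12.4% TATAAA and 1.47% a CArG box, and 1.56% held both GGAATG and TATAAA anywhere in the region. These matches are letters in a window and not measured sites. Only the exact letters TATAAA were searched, so TATA boxes of other spelling are not counted. The second Tnc region, for example, holds tatataag close to its start. Sparcl1, Thbs1, Ccn2 and Ccn3 were not matched.

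Sparc encodes a collagen-binding glycoprotein of basement membranes that loosens the hold of cells on the matrix. Its log2 signals were 13.41, 13.37 and 13.37 on replicates 1, 2 and 3, linear signals of 10891, 10560 and 10568. All arrays were close to each other, and the mean of 13.38 ± 0.03 (SD, n = 3) was 6.46 above background, or 87.9 times its linear level. Sparcl1, also called hevin, encodes the nearest relative of Sparc and is known from blood vessel walls and the brain. It had 10.57, 10.71 and 10.67, with a mean of 10.65 ± 0.07 (n = 3), and 3.72 above background. Replicate 1 was the lowest of the 3, and it still lay 3.67 above its background.

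**Figure D1:**
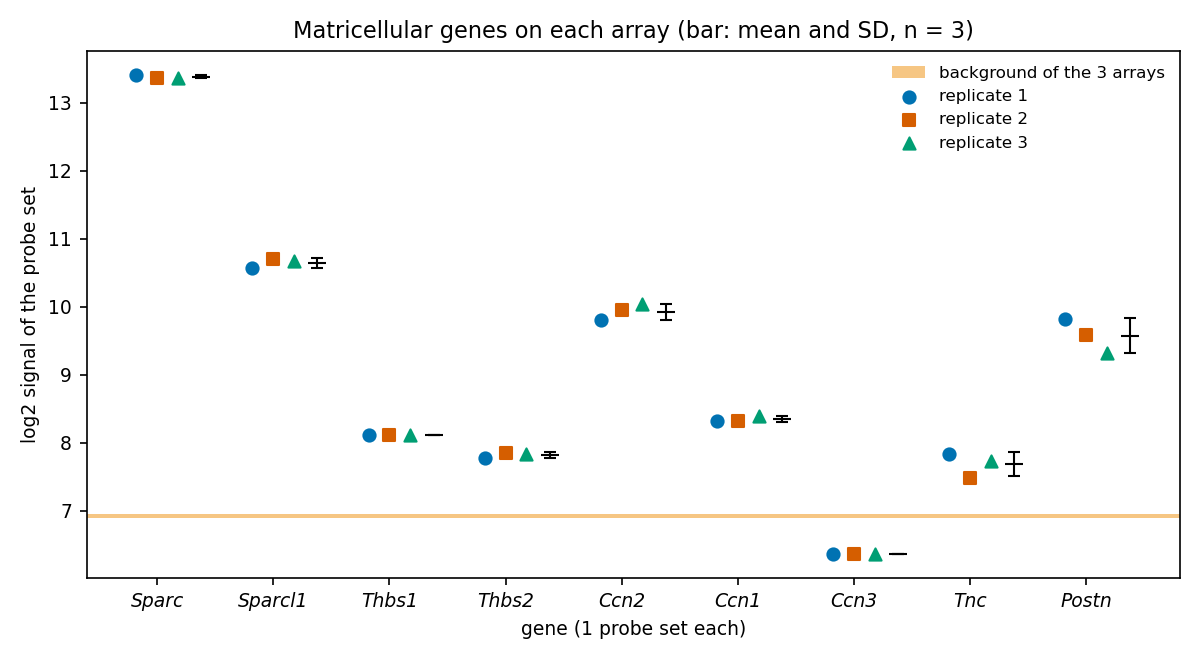
log2 signal (vertical axis) of the 9 matricellular genes analysed (horizontal axis, 1 probe set each) on replicates 1, 2 and 3, with a black bar for mean and SD (n = 3) and an orange band for background, 6.90 to 6.96. Every array of 8 genes lies above the band and all 3 of Ccn3 lie below it, at 6.37; heights of different genes are not on a common scale.

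The thrombospondins Thbs1 and Thbs2 restrain the growth of blood vessels, and Thbs1 can also release active TGF-beta from its latent form. Thbs1 held the same signal of 8.11 on all 3 arrays, a linear signal of 277, which is 1.19 above background. Thbs2 had 7.78, 7.85 and 7.84, with a mean of 7.82 ± 0.04 (n = 3) and a level of 0.90 above background, or 1.87 times its linear value. Each was above background on 3 of 3 arrays. An SD of 0, as for Thbs1, is a feature of the deposited values and no measure of its error. Of all genes 54.2% hold 1 value on every array, and so do 2 of the 9 matricellular genes, Thbs1 and Ccn3, while 6 of 9 have 3 different values, against 18.3% of all genes.

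The CCN proteins bind integrins and heparan sulfate proteoglycans. Ccn2, connective tissue growth factor, drives matrix production together with TGF-beta. It had 9.80, 9.95 and 10.03 on replicates 1, 2 and 3, with a mean of 9.93 ± 0.12 (n = 3). This was 3.01 above background, or 8.03 times its linear level, and the smallest distance on an array was 2.91. Ccn1, a ligand of integrins that cells make within minutes of a stimulus, had 8.33 on replicates 1 and 2 and 8.40 on replicate 3, a mean of 8.35 ± 0.04 (n = 3) and 1.43 above background. Ccn3, known as a counterweight to Ccn2 in matrix production, held 6.37 on all 3 arrays, a linear signal of 82.7, and was 0.55 below background. It was not detected, which says that its probe set gave no signal above this level, not that the transcript is absent.

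Tnc encodes tenascin-C, a large star-shaped protein of growing and healing tissue. Its signals were 7.83, 7.49 and 7.74, a mean of 7.69 ± 0.18 (n = 3), and 0.76 above background. Replicate 2 was the lowest and lay 0.53 above its own background. Against the 99th percentile of the receptors, at 7.52, 7.58 and 7.58, replicate 2 fell below and the other arrays stayed above. Postn encodes periostin, a protein that links collagen to integrins and is mostly made by fibroblasts and other mesenchymal cells. It had 9.82, 9.59 and 9.32 on replicates 1, 2 and 3, a mean of 9.58 ± 0.25 (n = 3), and was 2.65 above background. Its arrays did not come close to background, with 2.40 as the smallest distance.

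The spread between preparations was largest for Postn, with 0.50 log2 between its highest and lowest array (1.42-fold), and next for Tnc with 0.34 (1.27-fold) and Ccn2 with 0.23 (1.17-fold). Of the detected matricellular genes 0 of 8 had arrays more than 1.5-fold apart, against 1.47% of all detected genes. A range as large as that of Postn was met by 2.08% of detected genes, one as large as that of Tnc by 4.95% and one as large as that of Ccn2 by 10.8%. The median range of the 8 detected members was 0.11 and that of all detected genes 0.02, a figure held down by tied values. The Postn arrays were nearly evenly spaced, and the gene spanned 0.27 without replicate 1 and 0.23 without replicate 3. Tnc spanned 0.09 without replicate 2, against 0.25 without replicate 1. Ccn2 spanned 0.09 without replicate 1 and 0.14 without replicate 3, and Sparcl1 spanned 0.03 without replicate 1.

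The genes did not share an order of arrays. Sparc, Tnc and Postn were highest on replicate 1, Sparcl1 and Thbs2 on replicate 2, and Ccn1 and Ccn2 on replicate 3. Postn was lowest on replicate 3 and Ccn2 on replicate 1. No correlation over 3 arrays was computed, since at least 6 samples would be needed.

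**Figure D2:**
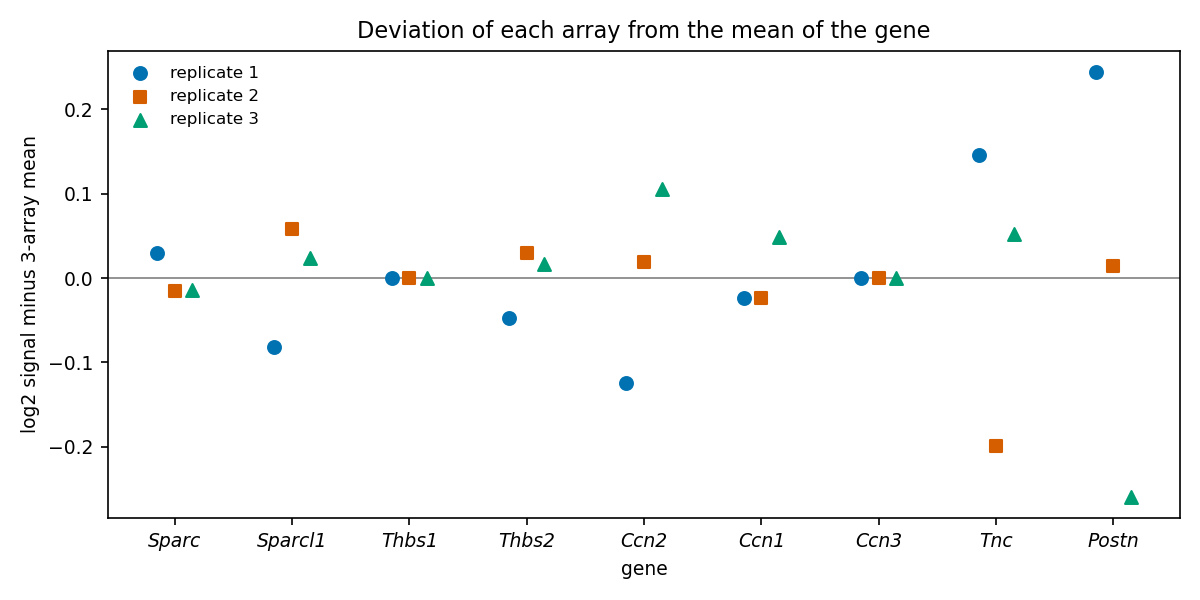
log2 signal minus the mean of the gene over 3 arrays (vertical axis) for the 9 genes (horizontal axis) and replicates 1, 2 and 3. Postn spreads most, with a range of 0.50, and is highest on replicate 1, where Ccn2 is lowest; Thbs1 and Ccn3 lie at 0 because their 3 values are the same.

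Markers of cells that could carry some of these transcripts are given beside that spread. Of 7 interstitial fibroblast markers 4 were detected, or 57.1%, close to the 58.9% of all genes. The same 58.9% stands beside the counts of the other markers below. The receptor gene Pdgfra, which mesangial cells also express, was 2.25 above background, and the collagen genes Col1a2, Col1a1 and Col3a1 were 1.30, 0.98 and 0.45 above it. Dcn and Lum, small proteoglycans, and Dpt, a matrix protein, were 0.85, 2.65 and 2.17 below background. The summed linear signal of the 7 markers was 1395, 1419 and 1369 on replicates 1, 2 and 3. Col1a1, Col1a2 and Col3a1 each held the same value on every array, and Dcn, Lum and Dpt lay below background. This sum could therefore show little of a change in these cells. Postn had linear signals of 905, 772 and 638 on the same arrays. Of 7 smooth muscle markers 6 were detected, with a summed signal of 3571, 4080 and 4737, and Cnn1, at 0.49 below background, was not. Myl9, a myosin light chain, made up much of that sum, with linear signals of 1973, 2086 and 2850, while Acta2, smooth muscle actin, had 255, 512 and 442 and Myh11, smooth muscle myosin, 254, 386 and 332. The markers thus did not share an order of arrays, since Myl9 was highest on replicate 3 and Acta2 and Myh11 on replicate 2. The sum of the 9 mesangial and pericyte markers was 17067, 18174 and 18279, and that of the 8 macrophage and immune markers, 6 of them detected, was 2329, 2636 and 1973. The 8 podocyte markers, all detected, summed to 23652, 22729 and 22373, and the 10 endothelial markers, all detected, to 22374, 21167 and 21526. The 8 proximal tubule markers summed to 3834, 4459 and 4135. For the 6 loop and distal tubule markers the sum was 2345, 2345 and 2419, and 3 of them had arrays more than 1.5-fold apart. The part of these cells in the spread was not tested. In tissue RNA of this kind fewer cells of a type and less RNA per cell cannot be told apart.

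Structural relatives of these genes were next examined. Of 20 relatives of the SPARC, thrombospondin, CCN, tenascin, periostin and osteopontin families 3 were detected, against 58.9% of all genes. Their median was 0.21 below background. In the SPARC family Fstl1, follistatin-like 1, had 1.62 above background, whereas the modular calcium-binding genes Smoc1 and Smoc2 and the testican genes Spock1, Spock2 and Spock3 were not detected. Spock2 was 0.03 above background, Spock1 0.15 below, Smoc1 0.19 below, Smoc2 0.60 below and Spock3 2.25 below. Counting the relatives and the matricellular genes together, 3 of 8 SPARC family genes were detected.

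Of the thrombospondins, 2 of 5 were detected, against 58.9% of all genes, a share that also stands beside the family counts below. The undetected genes, Thbs3, Thbs4 and Comp, belong to the subgroup that forms pentamers. Comp was 0.08 below background, Thbs3 0.50 below and Thbs4 0.61 below. Of 6 CCN genes 3 were detected, with Ccn5 (Wisp2), which lacks the last module of the family, at 0.81 above background. Ccn6 (Wisp3) was 0.03 below and Ccn4 (Wisp1) 0.67 below. Of the tenascins only Tnc was detected among 4, and Tnn, Tnxb and Tnr were 0.12, 0.22 and 1.08 below. Tgfbi, the closest relative of Postn, was detected at 0.95 above background. In the SIBLING family of bone and tooth matrix, to which osteopontin belongs, no gene analysed was detected. Dspp was 0.05 above background, Dmp1 0.58 below, Mepe 1.20 below and Ibsp 1.59 below.

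**Figure D3:**
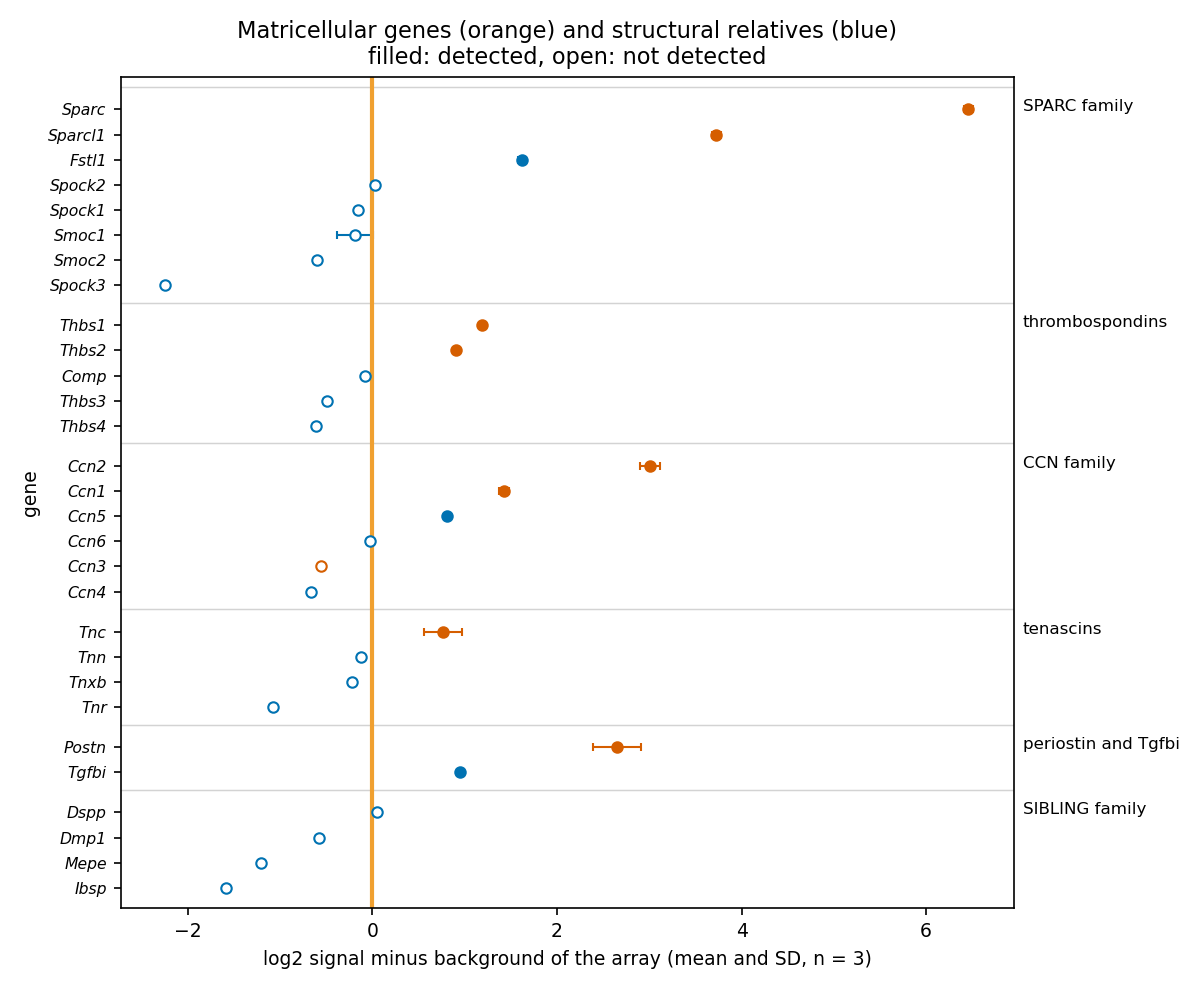
log2 signal minus the background of the array (horizontal axis, mean and SD of n = 3) for matricellular genes (orange) and structural relatives (blue) by family (rows); the vertical line is background. Filled points are detected and open points are not; 3 of 20 blue points are filled and 8 of 9 orange ones.

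Receptors for these proteins were detected in 19 of 23 cases, against 58.9% of all genes. Their median was 2.76 above background, against 0.37 for all genes. Cd47, a receptor of Thbs1 that also marks cells as self, was 5.78 above background. The integrin genes Itgb1, Itga8 and Itgb5 were 5.48, 4.81 and 3.88 above it, and Itga8 is the mesangial partner of Itgb1 that binds tenascin-C. Named here for their role and after their values were seen, Itgav, the alpha chain that binds periostin and Ccn1, was 3.83 above background, Cd36, through which Thbs1 acts on endothelium, 2.45, and Stab1, a scavenger receptor that takes up Sparc, 0.95. Not detected were Itgb3 at 0.20 below background, Cd44, a receptor of osteopontin, at 0.58 below, Itgam at 0.90 below and Itgb6 at 0.93 below.

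Genes of the YAP and TEAD pathway, which senses stretch and switches on Ccn1 and Ccn2, were all detected, 18 of 18 analysed. Of all genes 58.9% were detected, and the activity of the pathway was not tested. Tead1, a partner that binds DNA for YAP, was 3.84 above background, the kinase gene Lats1 3.44, Sav1 2.87 and Vgll4 2.55. Yap1 itself, named after its value was seen, was 1.30 above background, and Ankrd1, another target of the pathway, 0.80. Of 10 genes of the serum response factor pathway 10 were detected, among them Vcl at 3.81, Mrtfb at 2.38, Fhl2 at 2.08 and Tagln at 1.26. Fos, an immediate early gene like Ccn1 and also named after its value was seen, was 0.26 above background. Its signals were 7.04, 7.25 and 7.25, and its level was the lowest of the 10. Fosb, Egr1 and Junb, immediate early genes of the same list named likewise, were 1.15, 0.53 and 0.28 above background. Whether the time in collagenase at 37 °C raised Ccn1, Ccn2, Fos, Fosb, Egr1 or Junb was not tested. It cannot be told apart from their level in the animal, since every sample was treated alike.

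**Figure D4:**
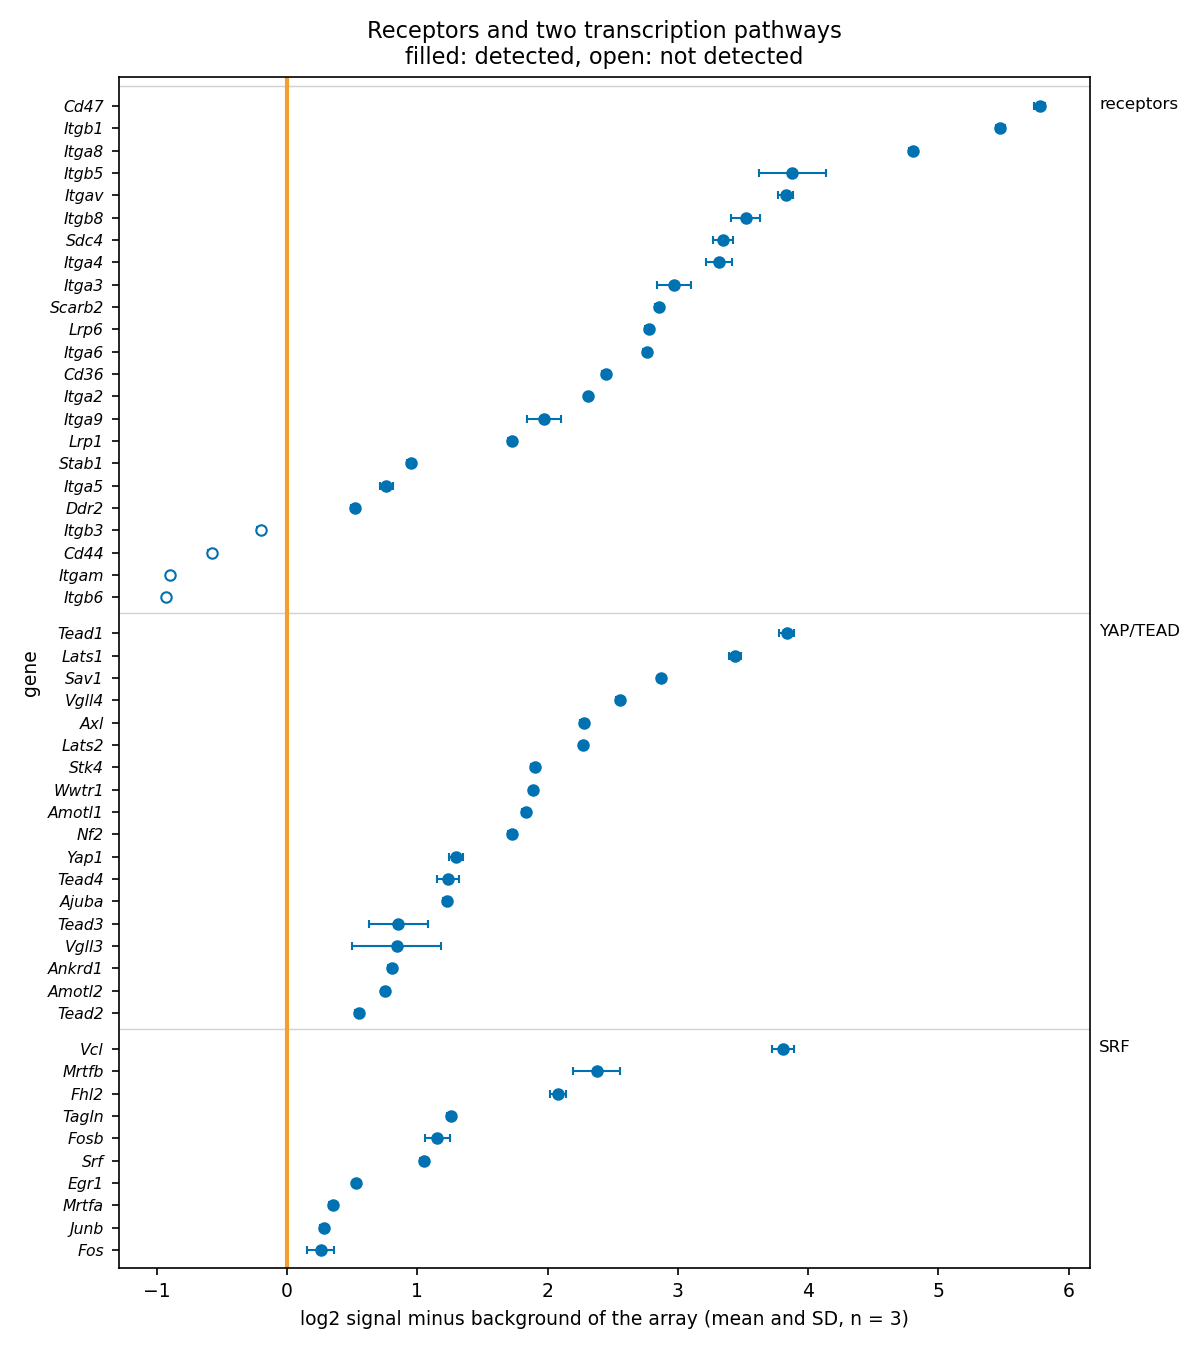
log2 signal minus the background of the array (horizontal axis, mean and SD of n = 3) of 23 receptor genes, 18 YAP/TEAD genes and 10 serum response factor (SRF) genes (rows). Filled points are detected genes, and the open points are Itgb3, Cd44, Itgam and Itgb6.

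Matrix partners were detected for 13 of 15 genes, against 58.9% of all genes. The laminin genes Lamc1 and Lamb2 were 2.41 and 2.39 above background. The collagen IV gene Col4a3 was 2.34 above it, and Nid1, which ties laminin to collagen IV, 2.15. Fn1, encoding fibronectin, and Vtn, encoding vitronectin, were not detected, at 0.24 and 0.75 below background. Growth factor genes and latency genes tied to these proteins were detected in 9 of 10 cases. Vegfa was 4.10 above background, Pdgfb, which Sparc can bind, 1.85, the latent TGF-beta binding gene Ltbp1 1.78 and Bmp4 1.64. Igf1 was not detected, at 0.09 below background.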

How the data were processed

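Total RNA of 3 samples went through 1 round of whole-transcript amplification and onto Affymetrix mouse gene arrays. The authors deposited 1 table of log2 signals for 35557 probe sets made, per the submitters' processing notes, with Affymetrix Expression Console. Its version, the summary method and the normalization are not given in the sources used here. Values ran from 2.36 to 14.40 with array medians of 7.11, 7.11 and 7.09, and were used as deposited. There were 0 columns of other samples. By the platform annotation 21789 probe sets name 1 gene, 1621 name several and 12147 are unnamed here.

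Detection was tested in R 4.3.3 with limma 3.58.1 (lmFit with an intercept, eBayes with a trend on level, one-sided, Benjamini-Hochberg over 19938 genes). The test was also run on simulated data, which held no tied values and so cannot show how it handles ties. Because many values are tied between arrays, no p of a single gene is printed. The test's error follows level more than a gene's own spread, so the call is in effect a cut close above background. Members and gene lists were chosen with earlier results of these data known, and no list was tested for enrichment. In lists of more than 6 genes, those named are mostly the 4 detected genes farthest above background and up to 4 undetected genes farthest below. Exceptions are genes said to be named after their values were seen, Ankrd1, and the smooth muscle marker Myh11. Myh11 was 1.39 above background, and Des at 1.58 and Smtn at 1.56 were not named. Whether pools differ in litter or day is not in the labels, and part of their spread may be technical. The number of arrays limits the precision. Promoter sequences are from RefSeq on GRCm38.p6; TATAAA was searched after the data were seen.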

Additional observations from a re-analysis of the deposited data

How the results depend on the processing

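Of the 9 matricellular genes 8 were detected under every setting tried but 1. Against the receptors' median all 9 were, since Ccn3 then lay 1.00 above it, and 18031 of all genes were detected. Over 14 settings, 125 of 126 levels of single members kept direction and call. Some settings could not move a level, so this count overstates the check. Each member has 1 probe set, so a median over probe sets returns the same values. Centring the arrays shifts signal and background alike. The receptor set was widened after a first look at the calls, and with the narrower set of 1205 probe sets used there the count was also 8 of 9, with 11712 of all genes detected. The median level of the 9 was 0.79 above the 99th percentile of the receptors, 1.77 above the 90th, 2.98 above the median and 1.12 above a linear signal of 150, because each setting moves the background level itself. At the 99th percentile Tnc was 0.13 above background on average. Without each replicate in turn the member count stayed at 8, the median level ran from 1.40 to 1.45 and 11424 to 11869 genes were detected in all.
No paired analysis was possible because there is only 1 group.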

Other observations

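Other secreted matrix regulators often grouped with these genes were detected in 9 of 10 cases analysed, against 58.9% of all genes. Srgn, the serglycin core protein of granules and of endothelium, was 5.03 above background, Bgn, a small proteoglycan that binds TGF-beta, 4.21, the galectin gene Lgals1 3.60 and Mgp, an inhibitor of vessel calcification, 3.06. Mgp had 9.57, 10.46 and 9.92 log2 on replicates 1, 2 and 3, a range of 0.90 and the only gene of this list with arrays more than 1.5-fold apart. Fbln1 was not detected, at 0.33 below background. Of 12 proteases and other enzymes that can process matricellular proteins 6 were detected, again against 58.9% of all genes. Ctsb was 3.55 above background, Adamts1, which can cut thrombospondins, 3.12, Mmp2 2.37 and Mmp14 1.66. Mmp3, F2, Mmp9 and Mmp7 were 0.70, 0.57, 0.49 and 0.35 below.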
